A study of Mus musculus with 14 samples.

Results

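The regions described here are the MBD-seq peaks at the vomeronasal receptor genes of the mouse. MBD-seq captures sonicated genomic DNA on a methyl-CpG binding domain protein and sequences the captured fragments, so that a peak marks a stretch where methylated, CpG-containing DNA was recovered. A peak was a member if it lay on chromosomes 1 to 19 and overlapped, by at least 1 bp, a gene whose symbol starts with Vmn1r or Vmn2r, taken with 5 kb on each side. There were 1649 such peaks among 1012200 peaks on these chromosomes in 14 samples, or 0.163%, and merging overlapping peaks of all samples gave 195 member regions among 147237. The annotation of the same genome build held 435 such genes, 256 of the Vmn1r family and 179 of the Vmn2r family.

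The study asked whether loss of Aid changes DNA methylation in induced pluripotent stem (iPS) cells. Samples of 4 groups were available. The first held 4 clones of Aid+/+ iPS cells and the second 4 clones of Aid-/- iPS cells, in which Aid is disrupted. All 8 clones were male, of mixed C57BL6, DBA and 129S4 background, carried the Nanog-GFP reporter, and were analysed at passage 6 on gelatin. Each clone was picked by hand as a single colony after fibroblasts had been infected with retroviruses for the reprogramming factors. By the start of their names the clones come in series of 2 to 4, and the series 979 holds Aid+/+ iPS 3 and 4 and Aid-/- iPS 1 and 2, so that clones of 1 series may not be independent. The third group held 3 embryonic stem (ES) cell lines, each of another strain: RF8 (ES 1, 129SV, male, passage 19), MG1.19 (ES 2, 129Ola, male) and B6 ES (ES 3, C57BL6, with no sex given in the labels). The fourth held 3 cultures of Aid+/+ mouse embryonic fibroblasts (MEFs) with the same reporter and mixed background as the iPS cells, male, at passage 3. Every p-value below measures the spread between these samples, and strain cannot be told apart from cell type in the ES comparison.

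Library depth was 20.1 to 36.9 M tags, of which 6.65 to 19.6 M remained after duplicate removal, and 31650 to 106408 peaks per sample were listed on chromosomes 1 to 19. The MEFs kept the most tags (17.5 to 19.6 M) and yet had 33500 to 54953 peaks, against 74815 to 106408 in Aid+/+ iPS clones. By the version and run name in the peak calling headers the samples fell into 4 groups, named runs here. The meaning of the run names is not explained. No run held Aid+/+ iPS clones together with ES cells or MEFs, so run and cell type cannot be told apart there. Aid-/- iPS 3 shared a run with the ES lines and MEF 1, the other 3 Aid-/- clones with Aid+/+ iPS 1. No pair of samples of a group shared more than 0.00119% of its peaks exactly. As a check of labels, all 8 iPS clones had peak summits in exons of Pou5f1, Klf4, Sox2 and Myc, the genes of the standard reprogramming factors. No ES line and no MEF did at Pou5f1 and Sox2. The other 2 genes separated the groups less, with exon summits in 1 ES line and no MEF at Klf4. At Myc, 2 ES lines and 3 MEFs had them. Nanog, which is active in pluripotent cells, had a peak in 2 of 3 MEFs and in no other sample.

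Vomeronasal receptors are G protein-coupled receptors by which neurons of the vomeronasal organ detect pheromones. V1Rs, encoded by Vmn1r genes with a single coding exon, are found in apical neurons that use the G protein subunit Gnai2, and V2Rs, encoded by Vmn2r genes with several coding exons and a large extracellular domain, in basal neurons that use Gnao1. Both families form clusters that grew by local duplication and contain many pseudogenes, and they lie in CpG-poor DNA rich in interspersed repeats. None of the cells studied here is a vomeronasal neuron.

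The sequences of 9 member regions are shown first, since the results turn on them. Each is 200 bases around the summit of a region, written 5′ to 3′ on the plus strand of build NCBIM37 (mm9), with CpG sites in capitals. The first set comprises 4 regions that share sequence with each other. They had more tags in MEFs than in Aid+/+ iPS clones, or peaks in MEFs and in no Aid+/+ iPS clone. They lie downstream of Vmn1r48 (chr6:89983889-89984088), in an intron of Vmn2r57 (chr7:48684741-48684940), in an intron of Vmn2r91 (chr17:18267543-18267742) and in an intron of Vmn2r118 (chr17:55733785-55733984). The tag increases were not called on fold enrichment, nor those at Vmn2r91 and Vmn2r118 with filtered tags as library size. A related region at Vmn2r69 had fewer tags in MEFs.
Vmn1r48: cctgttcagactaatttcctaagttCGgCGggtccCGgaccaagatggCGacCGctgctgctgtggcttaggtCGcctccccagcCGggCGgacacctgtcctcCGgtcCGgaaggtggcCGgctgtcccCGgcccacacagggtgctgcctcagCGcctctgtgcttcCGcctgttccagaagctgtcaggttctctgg
Vmn2r57: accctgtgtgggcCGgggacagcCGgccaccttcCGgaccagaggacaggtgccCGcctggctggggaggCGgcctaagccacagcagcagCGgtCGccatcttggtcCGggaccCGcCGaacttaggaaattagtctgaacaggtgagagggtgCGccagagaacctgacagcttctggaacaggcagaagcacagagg
Vmn2r91: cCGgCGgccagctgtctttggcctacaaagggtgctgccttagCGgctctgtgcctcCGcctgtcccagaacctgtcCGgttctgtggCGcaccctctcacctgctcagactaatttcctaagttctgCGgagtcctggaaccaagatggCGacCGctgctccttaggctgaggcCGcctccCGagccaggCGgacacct
Vmn2r118: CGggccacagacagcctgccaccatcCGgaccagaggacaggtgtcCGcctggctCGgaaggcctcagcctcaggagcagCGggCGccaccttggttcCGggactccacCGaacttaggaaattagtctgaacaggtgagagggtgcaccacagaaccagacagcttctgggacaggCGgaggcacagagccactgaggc

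The second set comprises a pair of nearly identical intronic regions of different V1R genes, Vmn1r112 (chr7:21546620-21546819) and Vmn1r139 (chr7:22872321-22872520). Both had fewer tags in MEFs and in Aid-/- iPS clones than in Aid+/+ iPS clones, the latter without passing edgeR's adjusted threshold.
Vmn1r112: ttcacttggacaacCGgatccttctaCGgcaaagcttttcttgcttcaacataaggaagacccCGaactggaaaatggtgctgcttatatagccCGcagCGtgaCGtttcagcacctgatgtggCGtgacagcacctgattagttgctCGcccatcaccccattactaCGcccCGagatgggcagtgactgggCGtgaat
Vmn1r139: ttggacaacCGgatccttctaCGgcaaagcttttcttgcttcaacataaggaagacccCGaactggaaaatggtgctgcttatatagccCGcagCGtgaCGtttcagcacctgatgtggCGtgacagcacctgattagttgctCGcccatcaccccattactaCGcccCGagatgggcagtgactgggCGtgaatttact

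The last set comprises a region upstream of Vmn2r84 with peaks in 10 of the 11 pluripotent samples and in no MEF (chr10:129833854-129834053), and 2 regions with a peak in all 14 samples and with no near-identical copy in the genome, downstream of the pseudogene Vmn1r-ps64 (chr7:12791539-12791738) and in an intron of Vmn2r11 (chr5:109480154-109480353).
Vmn2r84: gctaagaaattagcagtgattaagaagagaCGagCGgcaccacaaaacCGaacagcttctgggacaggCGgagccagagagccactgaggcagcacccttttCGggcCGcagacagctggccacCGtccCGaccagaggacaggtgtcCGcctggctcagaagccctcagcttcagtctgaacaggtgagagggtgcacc
Vmn1r-ps64: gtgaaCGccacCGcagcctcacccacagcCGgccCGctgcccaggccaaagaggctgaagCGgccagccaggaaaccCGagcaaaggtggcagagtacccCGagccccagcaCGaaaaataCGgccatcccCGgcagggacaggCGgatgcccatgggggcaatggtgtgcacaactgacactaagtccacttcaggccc
Vmn2r11: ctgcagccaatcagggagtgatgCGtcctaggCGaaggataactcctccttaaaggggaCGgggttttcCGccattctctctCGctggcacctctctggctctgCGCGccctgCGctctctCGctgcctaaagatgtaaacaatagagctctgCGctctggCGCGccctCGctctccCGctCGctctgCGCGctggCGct

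Peaks were sparse at vomeronasal receptor genes. The number of member peaks was 127, 134, 142 and 156 in Aid+/+ iPS 1 to 4, 136, 131, 129 and 117 in Aid-/- iPS 1 to 4, 101, 78 and 142 in ES 1 to 3 and 98, 94 and 64 in MEF 1 to 3. ES 3 thus reached the iPS range, while ES 2 and MEF 3 had the fewest. The receptor windows, 8.43 Mb in all, held 7.59 to 18.5 peaks per Mb, compared with 12.8 to 43.1 per Mb in the rest of chromosomes 1 to 19. The log2 ratio of these densities was -1.01 ± 0.233 (SD, n = 14) and was below 0 in 14 of 14 samples (permutation of signs over samples, two-sided p = 0.000122, the smallest possible; Benjamini-Hochberg (BH)-adjusted p = 0.000244 over 4 tests). Zinc finger genes (Zfp), another large family in clusters, had a higher density than the receptors in 14 of 14 samples (log2 ratio -1.46 ± 0.242, BH-adjusted permutation p = 0.000244).

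**Figure D1:**
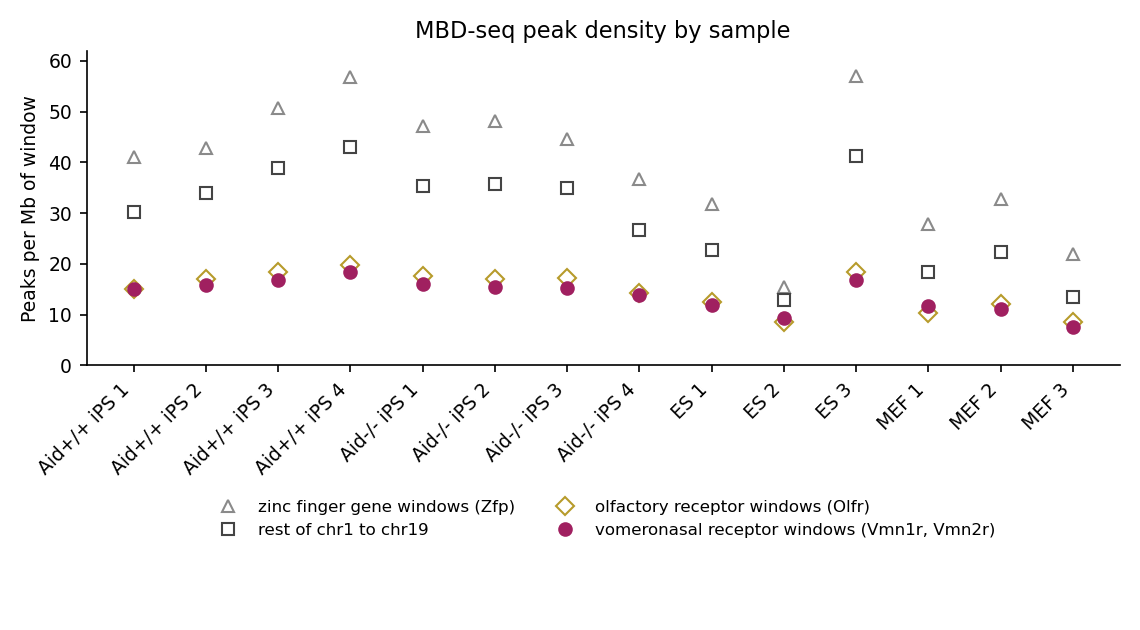
Peaks per Mb of window in each of the 14 samples (x axis) at vomeronasal receptor genes (filled circles), olfactory receptor genes, zinc finger genes and the rest of chromosomes 1 to 19. In every sample the vomeronasal receptor windows lie below the zinc finger windows and the rest of the chromosomes, at 7.59 to 18.5 peaks per Mb, and close to the olfactory receptor windows.

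The olfactory receptor genes (Olfr), the most similar family, had almost the same density. Olfr windows held 8.58 to 19.7 peaks per Mb, and the log2 ratio of vomeronasal to olfactory density was -0.07 ± 0.101 (SD, n = 14), below 0 in 11 of 14 samples (permutation p = 0.0259, BH-adjusted 0.0259). This small difference changed sign with windows of 20 kb on each side, where it was 0.05 (permutation p = 0.00208). Between the families, Vmn1r windows had a lower density than Vmn2r windows in 11 of 14 samples (log2 ratio -0.22 ± 0.208, BH-adjusted permutation p = 0.00342), which also turned with 20 kb (0.42). By group this ratio was 0.01 ± 0.150 in Aid+/+ iPS clones, -0.27 ± 0.0933 in Aid-/- iPS clones, -0.39 ± 0.114 in ES lines and -0.29 ± 0.238 in MEFs. Aid+/+ iPS 1, of the same run as 3 Aid-/- clones, had -0.21, within the Aid-/- range of -0.36 to -0.14. The part of the run in the group values was not tested.

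The receptor windows are poor in CpG sites, the substrate that MBD-seq reads. They held 4.74 CpG per kb, close to the 4.84 of Olfr windows and below the 8.51 of chromosomes 1 to 19 and the 11.3 of Zfp windows. Per 1000 CpG, Aid+/+ iPS clones had 3.52 ± 0.313 member peaks against 4.43 ± 0.677 over all (SD, n = 4), a ratio of 0.7996 ± 0.0554. The ratio was 0.809 ± 0.0692 in Aid-/- iPS clones, 0.967 ± 0.277 in ES lines and 0.986 ± 0.113 in MEFs, so that the gap to the rest was smaller per CpG than per Mb in every group.

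Although sparse, member peaks were larger than the usual peak of the same sample. The median number of tags per member peak exceeded that of all peaks in 14 of 14 samples, by a factor of 1.24 to 2.02, and the median length did so by 1.11 to 1.23 (permutation of signs over samples, p = 0.000122 for each, BH-adjusted 0.000183, measures chosen after their values were seen). Olfr peaks showed the same, with more tags than all peaks by a factor of 1.03 to 1.43 and a greater length by 1.01 to 1.12, in 14 of 14 samples each, while member peaks had 1.03 to 1.58 times the tags of Olfr peaks. In Aid+/+ iPS clones a member peak had a median of 73.9 ± 19.4 tags, against 40.5 ± 5.45 for all peaks (SD, n = 4).

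Of the 435 receptor genes, 134 had a peak in at least 1 sample, 33 had one in all 14, and 301 had none in any. Fewer V1R than V2R genes had a peak. Of 256 Vmn1r genes, 61 had one and 195 had none, whereas of 179 Vmn2r genes, 73 had one and 106 had none. Vmn1r genes are also shorter, with a median of 0.927 kb against 18.1 kb, so that their windows are mostly flank. Windows of genes with a peak held 5.69 CpG per kb and windows of genes without one 3.91. The number of genes with a peak was 90.5 ± 8.81 in Aid+/+ iPS clones, 83.3 ± 3.59 in Aid-/- iPS clones (SD, n = 4 each), 70.7 ± 18.5 in ES lines and 61.7 ± 11.02 in MEFs (SD, n = 3 each).

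The most regions lay at long genes. The V2R pseudogene Vmn2r-ps11 (ENSMUSG00000074581.2, chr3:64436785-64648665) held 11 regions and Vmn2r7, a V2R gene annotated inside the same stretch (chr3:64494582-64648687), 7. Peaks at Vmn2r-ps11 numbered 10, 9, 10 and 12 in Aid+/+ iPS clones and 9, 8, 8 and 7 in Aid-/- iPS clones. ES lines had 8, 4 and 9 and MEFs 6, 5 and 2, so that all 3 MEFs lay below all 8 iPS clones. MEFs also had fewer peaks over all chromosomes used here. Their mean was 44675, against 90257 in Aid+/+ and 81875 in Aid-/- iPS clones. Vmn2r-ps54 (chr7:48923349-48982563) held 5 regions, and Vmn2r35 (chr7:7738862-7772578), Vmn1r112 (chr7:21356583-21557259) and Vmn2r91 (chr17:18222021-18273607) 4 each. Vmn2r35 had the densest CpG of these, 11.7 per kb, and kept its peaks in every cell type, with 6, 5, 7 and 6 in Aid+/+ iPS clones, 6, 7, 7 and 6 in Aid-/- iPS clones, 6, 6 and 6 in ES lines and 5, 6 and 4 in MEFs. The longest genes with no peak in any sample were Vmn2r81 and Vmn2r80 (chromosome 10) and Vmn2r-ps57 and Vmn2r61 (chromosome 7), of 40703 to 46759 bp, with 3.65 to 4.81 CpG per kb.

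By location, 378 of the genes lay in 11 clusters of at least 10 genes (neighbours within 1 Mb) and 57 elsewhere. All 11 clusters had regions with peaks, from 16.2 to 40.3 regions per Mb of window. The 23 Vmn1r genes at chr6:89648711-90220047 had the most, with 8.50 ± 1.29 peaks per Aid+/+ iPS clone (SD, n = 4) and 5.33 ± 1.15 per MEF (SD, n = 3). The ratio of MEF to Aid+/+ iPS peak numbers was below 1 in all 11, and lowest, at 0.211, in the cluster of 17 genes at chr7:5097820-5962612, where Aid+/+ iPS clones had 4 to 6 peaks and each MEF had 1. It was highest, at 0.933, among the 40 Vmn2r genes at chr7:91958938-94186478, where the ranges overlapped (6 to 10 and 4 to 9). MEFs have fewer peaks over all chromosomes used here, with a mean of 44675 against 90257 in Aid+/+ iPS clones. Only the clusters at chr7:5097820-5962612 and chr3:63885564-64648687 (0.403) lay below the ratio of these means. The other clusters lay above it, at 0.511 to 0.933. In most clusters the deficit of MEFs was thus smaller than over all peaks. The clusters were not tested one by one.

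Few member regions lay at the receptor exons or promoters. Of the 195 regions, 3 had their summit in an exon, 81 in an intron, 37 upstream of the gene, 58 downstream and 16 just outside the window. Exons made up 7.80% of the window bases and held 1.54% of the summits, although exons of these genes had 4.38 CpG per kb, near the 4.74 of the windows. Introns made up 42.6% of bases and held 41.5% of summits. Only 2 regions covered a transcription start site and 4 had their summit within 500 bp of one. In Vmn2r genes, 71 of 120 summits (59.2%) were intronic, where introns make up 60.6% of the bases.

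**Figure D2:**
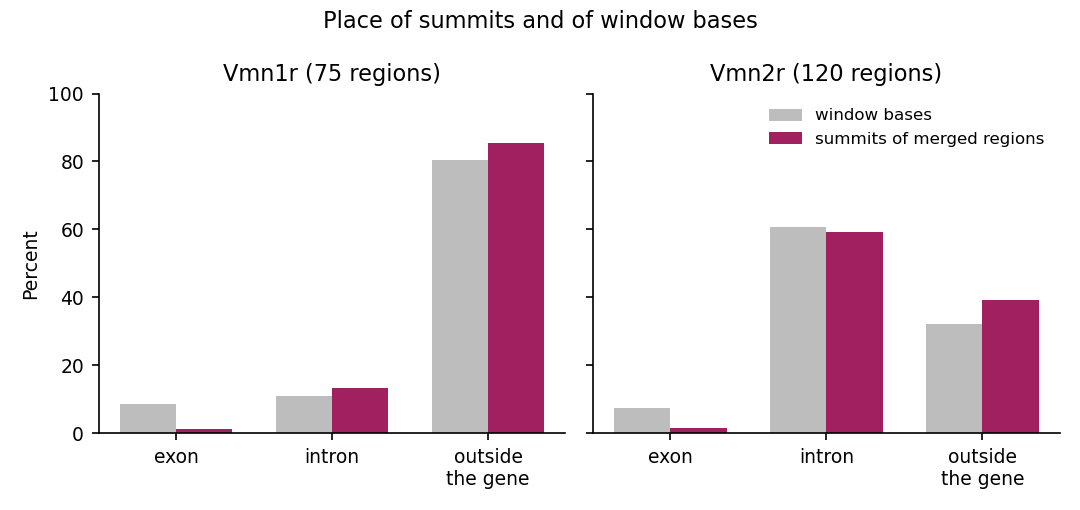
Percent of window bases (grey) and of region summits (purple) in exons, introns and outside the gene, for 75 Vmn1r regions and 120 Vmn2r regions. Exons hold 1.33% and 1.67% of summits, below their share of the bases, while introns hold 13.3% and 59.2%.

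Member regions were more often shared by all samples than regions in general. A peak in all 14 samples was found at 40 of 195 member regions (20.5%), against 9.90% of all 147237 regions and 16.4% of 359 Olfr regions. A peak in all 8 iPS clones was found at 93 regions (47.7%, against 32.5% of all and 42.9% of Olfr regions). A peak in a single sample was found at 38 (19.5%, against 22.3% of all and 22.0% of Olfr regions). The member regions shared by all 14 samples had a median of 16 CpG in the 300 bp around the summit, and those of a single sample had 5. Among all regions of chromosomes 1 to 19 these classes had medians of 15 and 8, and all regions together 10. Neighbouring regions share sequence, so these shares are given as descriptions.

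Many of these regions are repeated elsewhere in the genome. With a near-identical copy defined as at least 95% identity over at least 90% of the 300 bp around the summit, 99 regions had none on chromosomes 1 to 19, 96 had at least 1, 60 had at least 10 and 34 had at least 100, the maximum being 1513 copies for the region downstream of Vmn1r-ps25. Whether tags that map to several places were kept is not given in the sources used here, so that tags at such copies may come from other loci. Regions with copies had peaks in all 14 samples more often, at 30 of 96 (31.3%), and those with at least 100 copies at 18 of 34 (52.9%), against 10 of 99 without a copy. They also had more tags, with a median of 55 against 24. No MEF peak was found at 58 of 99 regions without a copy and at 28 of 96 with one. Without a copy, the share of member regions common to all samples was close to that of all regions of the genome. The latter were not split by copies, so this does not compare like with like. Whether copies account for the greater sharing of member regions was not tested.

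**Figure D3:**
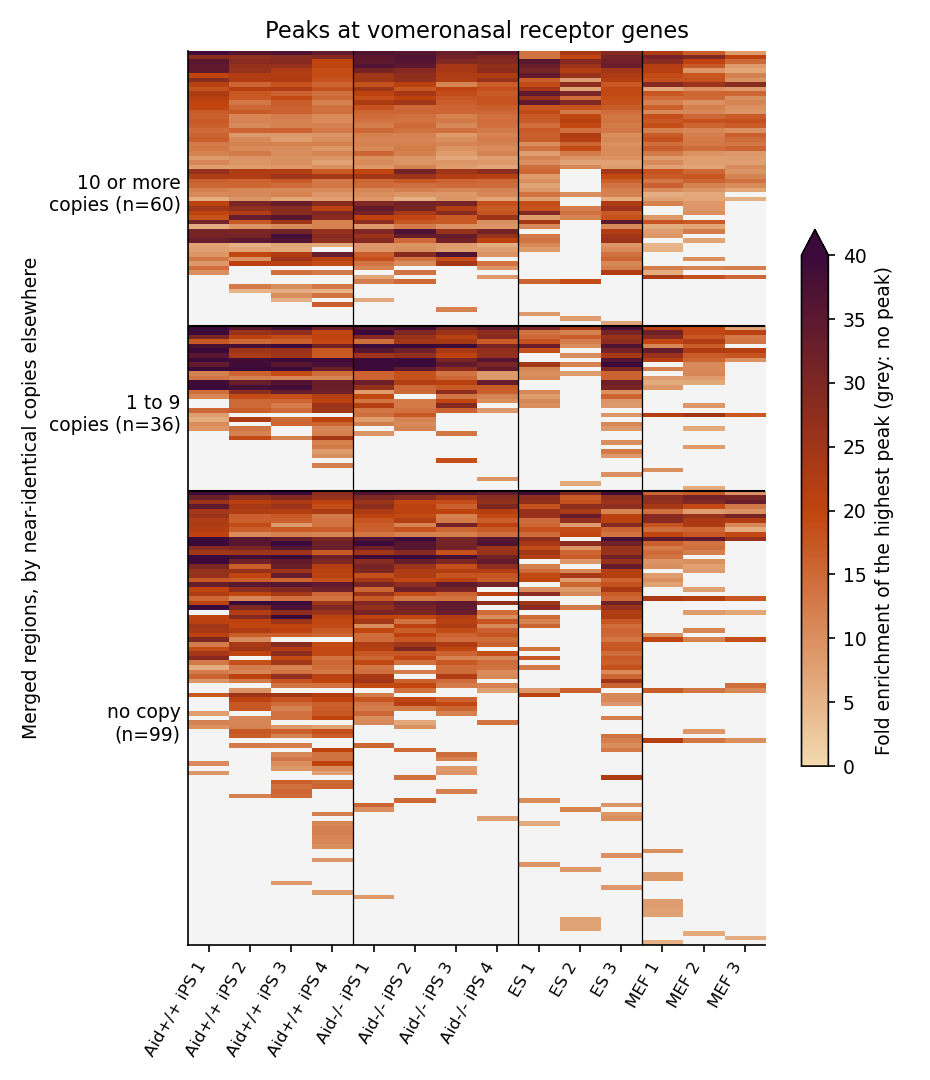
Fold enrichment of the highest peak (colour scale) at each of the 195 member regions (rows) in the 14 samples (columns), ordered by the number of near-identical copies elsewhere and by the number of samples with a peak. Of the 60 regions with 10 or more copies 26 are filled in all 14 samples, whereas 58 of the 99 regions without a copy are empty in all 3 MEFs.

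The regions also resemble each other. With at least 80% identity over at least 150 bases, 116 of the 195 regions fell into 20 sequence families, which were defined after the values were seen and are numbered by size, and 79 stood alone. Members of a family are not limited to 1 receptor family. Family 1 holds 8 Vmn1r and 11 Vmn2r regions. Family 2, which includes the Vmn2r11 region shown above, holds 4 and 14. Family 3, which includes the first set of sequences above, holds 4 and 8. The regions of Vmn1r48 and Vmn2r57, on chromosomes 6 and 7, were 97.6% identical over 245 bases in opposite orientation, and those of Vmn1r112 and Vmn1r139 were 99.7% identical over 295 bases. Of the 40 regions with a peak in all 14 samples, 35 belonged to a family and 5 stood alone.

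Regions with a peak in all samples differed in strength. By median fold enrichment over the local background, the highest was the region downstream of Vmn1r-ps64 (chr7:12791084-12792168), with values of 38.9, 38.7, 40.3 and 27.5 in Aid+/+ iPS clones and 36.3, 35.0, 36.1 and 34.0 in Aid-/- iPS clones. It had 39.0, 29.2 and 39.1 in ES lines and 15.5, 17.0 and 9.60 in MEFs. All 3 MEFs were thus below the other 11 samples. An intron of Vmn2r62 (chr7:50031040-50031989) followed the same order, with 32.3 to 46.5 in Aid+/+ iPS clones, 30.1 to 38.5 in Aid-/- iPS clones, 23.6 to 38.3 in ES lines and 21.1, 19.4 and 7.2 in MEFs. In an intron of Vmn2r53 (chr7:13173101-13174211) the MEFs, at 22.8, 16.4 and 8.16, lay below all 8 iPS clones, at 32.7 to 38.8, and ES 1, at 13.7, was among them. The intronic region of Vmn2r11 (chr5:109479525-109480851) did not, with 26.5 to 32.9 in Aid+/+ iPS clones and 27.8, 31.5 and 30.9 in MEFs, which lay within the iPS range. The region upstream of Vmn2r72-ps, annotated as protein-coding, (chr7:92908063-92909376), with 1326 copies, had 27.1 to 29.0 in Aid+/+ iPS clones and 31.2, 29.5 and 20.4 in MEFs, and the region downstream of Vmn2r46 (chr7:10339099-10340443), with 150 copies, had 19.9 to 35.4 and 28.1, 20.6 and 14.9, so that both ranges overlapped.

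Over all member peaks, the strength was lower in MEFs and ES lines than in iPS clones. The median fold enrichment of a sample's member peaks was 18.4, 17.3, 16.8 and 16.3 in Aid+/+ iPS clones, 17.6, 17.6, 17.2 and 16.2 in Aid-/- iPS clones, 14.6, 12.9 and 15.7 in ES lines and 13.8, 11.9 and 11.2 in MEFs. The 8 iPS clones lay above all ES lines and MEFs. The difference from Aid+/+ iPS clones was -4.92 in MEFs and -2.80 in ES lines (exact permutation test, two-sided p = 0.0286 for each, the smallest possible with these groups; BH-adjusted p = 0.0571 over 6 tests), and -0.0713 in Aid-/- iPS clones (exact permutation p = 0.943). Within the run that held MEF 1, it had 13.8, the 3 ES lines had 12.9 to 15.7 and Aid-/- iPS 3 had 17.2.

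Part of this is shared by all peaks, so the median was also divided by that of all peaks on chromosomes 1 to 19 of the same sample, a measure tested after its values were seen. The ratio was 1.15, 1.09, 1.05 and 1.12 in Aid+/+ iPS clones, 1.07, 1.06, 1.07 and 1.09 in Aid-/- iPS clones, 1.04 in each ES line and 0.947, 0.967 and 0.895 in MEFs. In MEFs alone the member peaks were weaker than the usual peak of the sample. The mean of 0.937 ± 0.0373 in MEFs and 1.10 ± 0.0438 in Aid+/+ iPS clones did not overlap in their samples (exact permutation p = 0.0286, the smallest possible; BH-adjusted 0.171 over 9 tests), whereas the same ratio for Olfr peaks was 1.14 ± 0.0558 and 1.13 ± 0.0318 (exact permutation p = 0.571). No adjusted p passed 0.05 here, and the difference between the receptor families was not itself tested.

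**Figure D4:**
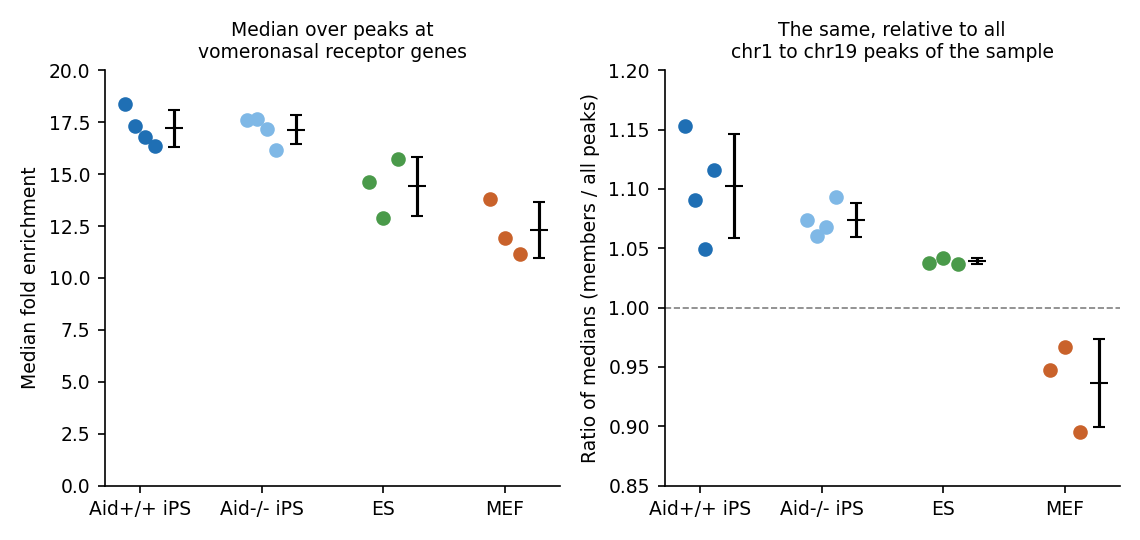
Left, median fold enrichment of the member peaks of each sample, by group. Right, the same divided by the median over all peaks of the sample (y axis not from 0); points are samples, and bars give the mean ± SD (n = 4, 4, 3 and 3). The 3 MEFs lie below 1, at 0.895 to 0.967, and the other 11 samples above it.

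As a share of a sample's peaks, members were not fewer in MEFs. The share was 0.156% ± 0.0108 in Aid+/+ iPS clones, 0.158% ± 0.0135 in Aid-/- iPS clones, 0.189% ± 0.0541 in ES lines and 0.192% ± 0.0220 in MEFs (SD, n = 4, 4, 3 and 3). All 3 MEFs lay above all 4 Aid+/+ iPS clones (exact permutation p = 0.0286, the smallest possible; BH-adjusted 0.0571). With the 31650 most significant peaks of every sample, the difference turned to -0.0392 percentage points, so its direction followed the number of peaks called. The share did not separate Aid-/- iPS clones (exact permutation p = 0.8286) or ES lines (exact permutation p = 0.257) from Aid+/+ iPS clones. The ratio of member to Olfr peaks did not separate any group from Aid+/+ iPS clones (exact permutation p of at least 0.371).

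Presence and absence of peaks were compared next, with differentially methylated regions (DMRs) defined as in the study's methods. A stretch common to the peaks of all samples of a group is a DMR if no peak of the other group overlaps it, and a commonly methylated region (CMR) if every sample of the other group has one there. This rule gives no p-value. Against MEFs, 25 of the 115 member stretches of Aid+/+ iPS clones were DMRs (21.7%, against 28.2% of all stretches) and 58 were CMRs. In the other direction, 2 of 65 member stretches of MEFs were DMRs (3.08%, against 6.37% of all). Both shares were below those of the genome. With the 31650 most significant peaks of every sample, there were 17 in both directions together. This is a count and not a share, since that setting also changes the DMRs of the whole genome. Without any 1 sample there were 27 to 38, with 19888 to 32391 over the genome.

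The DMRs of Aid+/+ iPS clones in the MEF comparison had 20 to 380 tags per clone on average. They lay at 9 Vmn1r and 16 Vmn2r genes, none with the summit in an exon, and 17 of the 25 had no near-identical copy. The one with the most significant peaks throughout lay 2656 bp upstream of Vmn2r84 (chr10:129833756-129834135), with 71, 43, 55 and 40 tags in Aid+/+ iPS clones. It had 26, 28 and 27 tags in Aid-/- iPS 1 to 3 and no peak in Aid-/- iPS 4, and 32, 28 and 46 in ES lines. Its fold enrichment was 34.2 ± 5.26 (SD, n = 4), and no MEF had a peak in the whole merged region.

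The next by the same order were near other V2R genes and a V1R pseudogene, also with no copy. A stretch 4695 bp downstream of Vmn2r112 (chr17:22760595-22761239) had 53, 66, 99 and 84 tags in Aid+/+ iPS clones, 20 to 50 in Aid-/- iPS clones, and peaks in 2 of 3 ES lines. One 4598 bp downstream of Vmn1r-ps66 (chr7:12972801-12973381) had 76, 79, 92 and 66 tags, 39 to 55 in Aid-/- iPS clones, and a peak in ES 3 only. Both thus had peaks in all 8 iPS clones. An intronic stretch of Vmn2r56 (chr7:13307041-13307623) had 47, 34, 52 and 36 tags, 20 to 28 in Aid-/- iPS clones, and also a peak in ES 3 only. A stretch 3299 bp upstream of Vmn2r104 (chr17:20188302-20188641) had 47, 49, 53 and 31 tags, 28 to 45 in Aid-/- iPS clones and 46, 15 and 39 in ES lines, and it was the member region with peaks in all 11 pluripotent samples and in no MEF. Of the 25, 17 had a peak in all 4 Aid-/- iPS clones and 6 in all 3 ES lines. At 21 of the 25 no MEF had a peak anywhere in the region merged over all samples. Among the other 4, the stretches with the most tags lay in introns of Vmn2r-ps49 (chr7:7992649-7993383, 174 to 600 tags) and Vmn2r35 (chr7:7764207-7764760, 39 to 252 tags), where all 3 MEFs had a peak beside the stretch, so that only the part covered differed. Both were chosen after their values were seen.

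The 2 DMRs of MEFs lay at V2R genes. In an intron of Vmn2r57 (chr7:48684479-48685363) the MEFs had 129, 127 and 93 tags at a fold enrichment of 18.9 ± 4.17 (SD, n = 3), Aid+/+ iPS clones and ES lines had no peak, and Aid-/- iPS 1 and 4 had peaks of 13 and 18 tags. This region has 1496 near-identical copies. The other lay 5256 bp downstream of Vmn2r85 (chr10:129849197-129849918), over an exon of the annotated gene Gm9770, with 56, 46 and 44 tags in MEFs, 48 tags in ES 3 and no peak in the other samples. It has no near-identical copy and 22 CpG in the 300 bp around its summit.

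Tag counts allowed a test per region where Aid+/+ iPS clones and MEFs all had a peak. Merged over these 7 samples, 51 member regions met this, and since each kept a peak in every MEF they are not a sample of all members. In edgeR's quasi-likelihood test, 29 of the 51 had a BH-adjusted p under 0.05, against 43.6% of 21945 regions over the genome. Of these, 8 had more tags in MEFs and 21 fewer, against 23.7% and 19.9% of regions over the genome in these directions. The median log2 change was -0.24 over members and -0.05 over all regions. Direction depended on the scaling, since with the total of filtered tags as library size 46 members were called, 1 higher and 45 lower, with a median over all regions of -1.29 and 84.2% of all regions called. With limma on log2 fold enrichment 14 were called, 4 higher and 10 lower (33.2% of all regions), with peak length as an offset 20 were called, 10 and 10 (32.1% of all), and without MEF 3, 19 of 67 were called (23.0% of all).

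The largest change was at the region downstream of Vmn1r48, a V1R gene (chr6:89983129-89986147). It held 104, 38, 18 and 44 tags in Aid+/+ iPS clones and 884, 679 and 560 in MEFs. Aid-/- iPS clones had 78, 38, 21 and 105 tags, ES 1 and ES 3 had 66 and 252, and ES 2 had no peak. Every MEF was therefore above every other sample. The log2 change was 4.49 ± 0.350 (SE, edgeR BH-adjusted p = 4.54e-07), and 7 of 7 fits that left out a sample kept the call. The fold enrichment, which is measured against the local background, was 5.85 to 9.34 in Aid+/+ iPS clones and 5.42 to 7.43 in MEFs, so that limma gave -0.19 (BH-adjusted p = 0.454). The region has 1448 near-identical copies.

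Of 4 other tested regions of the same sequence family, 2 also rose. The intronic region of Vmn2r91 (chr17:18267110-18268177) had 50, 27, 14 and 19 tags in Aid+/+ iPS clones and 81, 67 and 31 in MEFs, a log2 change of 1.78 ± 0.345 (SE, edgeR BH-adjusted p = 0.00133), with no near-identical copy. That of Vmn2r118 (chr17:55733403-55734426) had 31, 31, 33 and 32 tags and 42, 66 and 38 in MEFs, a log2 change of 1.28 ± 0.298 (edgeR BH-adjusted p = 0.00462), with 1 copy. In raw tags the groups at Vmn2r91 overlap, and with TMM-scaled library sizes all 3 MEFs were above all 4 Aid+/+ iPS clones at both, which did not hold with filtered tags as library size. In family 3, 5 regions were tested, 3 of which rose, 1 fell (at Vmn2r69) and 1 did not pass, with a median log2 change of 1.28, and with filtered tags as library size 2 of the 5 were below 0. The Vmn2r57 region, a MEF DMR, belongs to it as well. Both increases lost their call with filtered tags as library size (log2 changes of 0.58 and 0.03) and with limma on fold enrichment (0.14 and 0.09).

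Other increases were at V2R genes. The region 840 bp downstream of Vmn2r86 (chr10:129881449-129882417) had 72, 24, 42 and 35 tags in Aid+/+ iPS clones and 85, 73 and 56 in MEFs, a log2 change of 1.42 ± 0.277 (edgeR BH-adjusted p = 0.00141). Its fold enrichment also rose, from 11.1 to 15.5 in Aid+/+ iPS clones to 17.3 to 23.4 in MEFs (limma log2 change 0.62, BH-adjusted p = 0.0425), with no overlap between the groups and no near-identical copy. With filtered tags as library size its tags did not pass (edgeR log2 change 0.19, BH-adjusted p = 0.586). An intronic region of Vmn2r53 (chr7:13187864-13188700) had 173, 94, 90 and 59 tags and 142, 124 and 104 in MEFs, a log2 change of 0.98 ± 0.213 (edgeR BH-adjusted p = 0.00294). This sign did not hold with filtered tags as library size (-0.27) or in limma (-0.16).

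Decreases in MEFs were led by the twin regions of Vmn1r112 and Vmn1r139. Vmn1r112 (chr7:21544867-21547200) had 230, 201, 191 and 195 tags in Aid+/+ iPS clones and 72, 47 and 32 in MEFs, a log2 change of -1.40 ± 0.225 (edgeR BH-adjusted p = 0.000325). Vmn1r139 (chr7:22870668-22872862) had 254, 255, 245 and 157 and 83, 39 and 45, a log2 change of -1.36 ± 0.222 (edgeR BH-adjusted p = 0.000354). MEFs and Aid+/+ iPS clones did not overlap at either, and the regions have 53 and 59 near-identical copies, each other's included. Low counts were not particular to MEFs. Aid-/- iPS clones had 79, 57, 55 and 101 tags at Vmn1r112 and 80, 72, 52 and 120 at Vmn1r139. ES lines had 20, 16 and 121 at Vmn1r112. At Vmn1r139, ES 1 and ES 3 had 17 and 167, and ES 2 had no peak. With limma on fold enrichment the changes in MEFs were -0.62 and -0.68, and neither passed (BH-adjusted p = 0.0957 and 0.0608), nor did Vmn1r139 in edgeR with peak length as an offset (0.0835). The intronic region of Vmn2r-ps54 (chr7:48926772-48927958), of the same sequence family, had 174, 164, 185 and 111 tags and 50, 55 and 44 in MEFs, a log2 change of -0.97 ± 0.201 (edgeR BH-adjusted p = 0.00204), and it was called in all 6 other fits of the whole table.

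The next by p were intronic regions of V2R genes. Vmn2r87 (chr10:129922444-129924991) had 247, 205, 248 and 201 tags in Aid+/+ iPS clones and 100, 86 and 49 in MEFs, a log2 change of -0.89 ± 0.195 (edgeR BH-adjusted p = 0.00312), with 290 copies. It did not pass in limma or with peak length as an offset (BH-adjusted p = 0.126 and 0.0780). The second region of Vmn2r53 (chr7:13173101-13174211) had 175, 125, 144 and 81 tags and 62, 41 and 23 in MEFs, a log2 change of -0.97 ± 0.230 (edgeR BH-adjusted p = 0.00501), which without MEF 3 was -0.62 (BH-adjusted p = 0.0842). In 1 gene, Vmn2r53, separate regions thus moved in opposite directions in edgeR's test, while on fold enrichment only the decrease was called (limma log2 change -1.31, BH-adjusted p = 0.00484).

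By sequence family the counts were as follows, given with no test since the families were defined after the values were seen. In family 1, 6 of 6 tested regions fell (at Vmn2r-ps11, Vmn1r30, Vmn1r-ps25, Vmn2r55, Vmn2r58 and Vmn2r72-ps, log2 changes of -1.12 to -0.50), and all 6 were also below 0 in limma and with peak length as an offset. Family 2 had 5 of 10 lower and none higher, family 5 had 3 of 3 lower, and family 6, with a median of 260 copies, had 0 of 7 called (log2 changes of -0.29 to 0.15), with all 7 above 0 in limma and below 0 with filtered tags as library size. Family 3 held both directions. With filtered tags as library size, all 10 regions of family 2 were below 0 too, as were the 6 tested regions that stood alone. The values within a family are not independent, since its members may share tags. Of the members with at least 1 near-identical copy, 22 of 39 were called, 3 higher and 19 lower, and of those with none, 7 of 12, 5 higher and 2 lower.

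**Figure D5:**
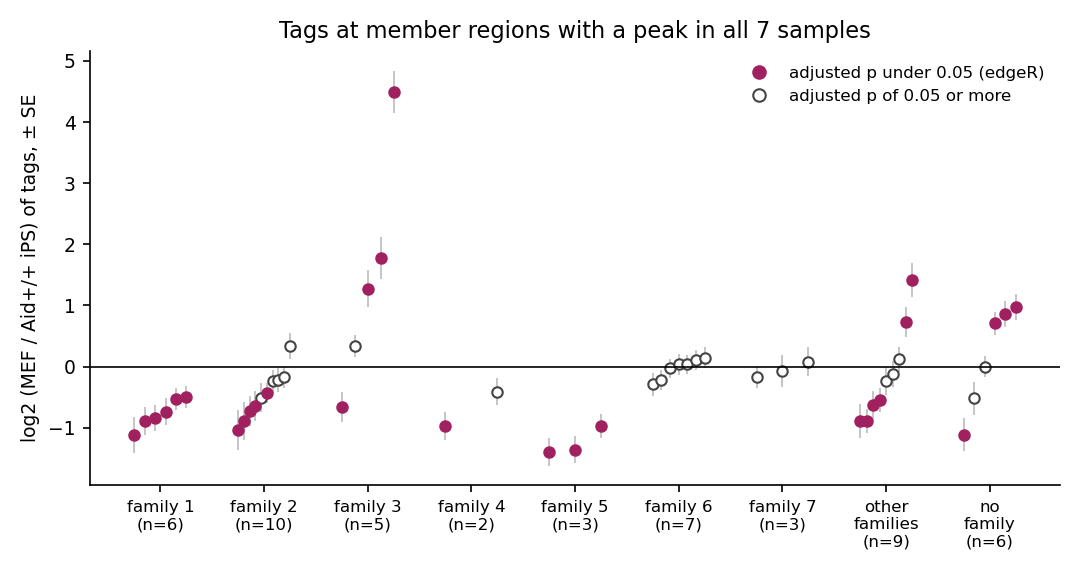
Log2 change of tags in MEFs against Aid+/+ iPS clones (y axis, bars are the SE) at the 51 member regions tested, by sequence family. Filled points have an edgeR BH-adjusted p under 0.05; all of family 1 (n = 6) and family 5 (n = 3) lie below 0, family 6 (n = 7) has none called, and the largest change of 4.49 is in family 3.

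Loss of Aid was compared within the iPS clones. None of the 115 member stretches of Aid+/+ clones and none of the 109 of Aid-/- clones was a DMR, where the genome had 0.415% and 0.101%, and 102 were CMRs. The count rested on Aid+/+ iPS 1, since without it 6 member DMRs appeared, while DMRs of the whole genome went from 313 to 1852. Without Aid+/+ iPS 2, Aid-/- iPS 1 or Aid-/- iPS 2 there was 1 member DMR each, with 559 to 580 over the genome. In tag counts, 96 member regions had a peak in all 8 clones, of which 0 passed edgeR's BH-adjusted threshold, where 0.00208% of 48078 regions did. At an unadjusted p under 0.05 there were 12 of 96 members and 3.61% of all regions. DESeq2 called 3 members lower in Aid-/- clones, with 0.0499% of all regions called in that fit, and without Aid+/+ iPS 1 edgeR called 1, with 0.125% of all regions.

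The members with the smallest p were again the twins. The Vmn1r112 region had 230, 201, 191 and 195 tags in Aid+/+ clones and 79, 57, 55 and 101 in Aid-/- clones, a log2 change of -1.06 ± 0.193 (edgeR BH-adjusted p = 0.2798). The Vmn1r139 region had 254, 255, 245 and 157 and 80, 72, 52 and 120, a log2 change of -1.05 ± 0.202 (edgeR BH-adjusted p = 0.2798). In tags the genotypes did not overlap at either. In fold enrichment they did, with 17.8 to 28.3 against 22.2 to 27.2 at Vmn1r112, and limma gave 0.15 and 0.23 (BH-adjusted p = 1.00 for each). The adjusted p at Vmn1r112 was under 0.05 with DESeq2 (0.0108), with filtered tags as library size (0.0445) and without Aid+/+ iPS 1 (0.0494), and it was 0.188 with the clone series as a replicate block.

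Most of the members with low p lay in 1 V1R cluster, which was singled out after its values were seen and is therefore described with no test. All 12 members with an unadjusted p under 0.05 had fewer tags in Aid-/- clones, and 10 of them lay in the cluster of 79 Vmn1r genes at chr7:20686507-24840710. The cluster holds 20 regions over all samples. Of these, 12 were tested, none was called after adjustment, and all 12 were below 0, with a median log2 change of -0.76 and a range of -1.28 to -0.13, against 62 of 96 members and a median of -0.08. Beside the twins, they included a region at Vmn1r101 (191, 153, 194 and 118 tags in Aid+/+ clones, 73, 72, 55 and 85 in Aid-/- clones) and one at the pseudogene Vmn1r-ps73 (228, 164, 180 and 125, against 85, 69, 56 and 99).

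As a share of the tags in the 96 member regions, the 12 regions of this cluster held 12.1%, 12.1%, 11.9% and 12.6% in Aid+/+ clones and 7.78%, 7.88%, 7.39% and 7.61% in Aid-/- clones. The ranges did not overlap, which restates the choice of the cluster, since it was singled out on these tag counts. Within the run that held Aid+/+ iPS 1 and Aid-/- iPS 1, 2 and 4, the shares were 12.1% and 7.61 to 7.88%. Within the clone series 979 they were 11.9 and 12.6% against 7.78 and 7.88%. Both splits use the tag counts on which the cluster was chosen, so they restate that choice too. The part of run and series was not tested. In fold enrichment 5 of the 12 were below 0, and with peak length as an offset 11 were. Every region of the 12 has near-identical copies, and whether the DNA of the cluster itself differs between the clones was not tested. In MEFs, which are Aid+/+, 7 regions of the cluster were tested and held 9.52%, 6.16% and 9.38% of the tags of the 51 members, against 11.01 to 12.39% in Aid+/+ iPS clones. In ES lines the 4 tested held 4.08%, 2.96% and 9.27% of the tags of the 57 members, against 7.995 to 9.708% in Aid+/+ iPS clones. Of the 3 lines, ES 3 lay within that range.

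In ES lines, 3 of 115 member stretches of Aid+/+ iPS clones were DMRs (2.61%, against 1.93% of all), 64 were CMRs, and 0 of 68 stretches common to the ES lines were DMRs (0.186% of all). The count rested on ES 3, the line with the most peaks, without which it was 21, while DMRs of the whole genome went from 1235 to 18381. Without Aid+/+ iPS 1 or Aid+/+ iPS 2 it was 8 and 5, with 4827 and 1649 over the genome. All 3 iPS DMRs were absent from MEFs too. A stretch 3221 bp downstream of the pseudogene Vmn1r-ps28 (chr6:89861648-89862029) had 25, 28, 23 and 29 tags in Aid+/+ iPS clones and 16, 15, 13 and 14 in Aid-/- iPS clones, and it was the member region with peaks in all 8 iPS clones and in no other sample. One 311 bp downstream of Vmn1r88 (chr7:13764112-13764515) had 22, 41, 32 and 32 tags and a peak in 1 Aid-/- iPS clone, and one in an intron of Vmn2r59 (chr7:49304282-49304804) had 16, 46, 37 and 44 tags and peaks in 2.

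Between ES lines and Aid+/+ iPS clones, 0 of 57 member regions differed in tag counts (edgeR BH-adjusted p under 0.05), against 0.0177% of 22638 regions, 0.0133% higher and 0.00442% lower in ES lines. At an unadjusted p under 0.05 there were 11 members and 10.07% of all regions, and DESeq2 called 2, with 1.36% of all regions called in that fit. The Vmn1r112 region had 20, 16 and 121 tags in ES lines, below all Aid+/+ iPS clones, a log2 change of -1.67 ± 0.406 (edgeR BH-adjusted p = 0.239). The region downstream of Vmn1r-ps25 (chr6:89645231-89646806) had 298, 343, 380 and 253 tags in Aid+/+ iPS clones and 60, 33 and 201 in ES lines, a log2 change of -1.34 ± 0.329 (edgeR BH-adjusted p = 0.239). ES 3 was the highest ES line at both. Without ES 3, 7 of 58 members passed, against 2351 of 22875 regions in all in that fit, these 2 among them, with log2 changes of -2.57 and -1.85 (edgeR BH-adjusted p = 0.000452 and 0.00237). On fold enrichment, limma gave -0.67 and 0.12. The 3 comparisons share the Aid+/+ iPS clones, so that a high value in these clones lowers the log2 change in each.

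The genes through which the receptors signal, and other receptors of the organ, were read from fixed lists. Of 12 listed genes of signalling and neuron identity, 11 were found in the annotation and all 11 had peaks in some samples, 4 of them in all 14: Gnai2 and Gnao1, the G protein subunits of V1R and V2R neurons, Ano2, a calcium-activated chloride channel, and Bcl11b, a transcription factor. Trpc2, the cation channel of vomeronasal transduction, had a peak in all 8 iPS clones, 2 ES lines and all 3 MEFs. Of 5 formyl peptide receptor genes found, some of which are expressed in vomeronasal neurons, 2 had no peak. Of 9 H2-M genes, class I major histocompatibility genes of which several are expressed with V2Rs, 8 had no peak in any sample, and H2-M9 had one in all 8 iPS clones, 2 ES lines and no MEF.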

How the data were processed

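Methylated DNA was enriched with a methyl-CpG binding domain kit from genomic DNA sonicated to short fragments, and single reads were mapped to mm9 (NCBI build 37). The authors used BWA 0.5.9rc1 and CASAVA 1.8.1 and called peaks with MACS in each sample alone, without a control library, at p ≤ 1e-05 (version 1.4.1 per the labels; the file headers give an earlier release for 5 samples). How tags mapping to several places were handled is not given in the sources used here. Each deposited peak list gives the count of tags in a peak after the duplicate filter, a significance derived from the −log10 p-value, and a fold enrichment, the ratio of tags to the local background of the same sample.

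Member peaks overlapped a Vmn1r or Vmn2r gene body with 5 kb on each side by at least 1 bp, in the GENCODE annotation of NCBIM37. The members and the gene lists were chosen with earlier results of these data known. Replicate numbers follow the accession order and pair nothing. Samples were compared by exact two-sided permutation tests, and densities by sign permutation over 14 samples, with Benjamini-Hochberg (BH) adjustment. Tag counts at regions with a peak in every compared sample were fitted over the whole table with edgeR 4.0.16 (quasi-likelihood, TMM), with DESeq2 1.42.0 and limma 3.58.1 as alternatives. The fit was tested on simulated counts. Near-identical copies and sequence families, the ratios to all peaks and the shares of tags in a cluster were added after the values were seen, and were found with blastn 2.17.0 where they concern sequence. Other tools were Python 3.11.15, scipy 1.17.1 and R 4.3.3.

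Regions named in the text are up to 5 DMR stretches of at least 50 bp per comparison and direction, by their least significant peak, up to 5 regions called by edgeR per direction by p (the 2 with the smallest p where none was called), the 6 regions with a peak in all samples and the highest median fold enrichment, the 6 genes with the most regions, and the 4 longest genes without a peak. Others are said to have been chosen after their values were seen or stand in a list of called genes. Alternatives were 0 or 20 kb flanks, a MACS threshold of 1e-10, the 31650 most significant peaks of each sample, protein-coding genes, covered bases, other library sizes, a tag minimum of 50, peak length as an offset, members with no copy, and each sample left out. Peaks outside chromosomes 1 to 19 were not used here. The check of the genotype labels at the disrupted gene is not reported here. Total tags, filtered tags and peaks per sample limit the precision, and intervals were not computed since tags are not independent molecules.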

Additional observations from a re-analysis of the deposited data

Results flagged for a closer look

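Among 70 groups of 4 samples examined, 2 had a sample far from the others by Dixon's ratio of the gap to the range at the 95% level, and chance alone flags about 1 in 20 groups. At the Vmn1r139 region, Aid+/+ iPS 4 held 157 tags and the other 3 Aid+/+ iPS clones 245 to 255. At the Vmn2r87 region, Aid-/- iPS 3 held 96 tags and the other 3 Aid-/- iPS clones 151 to 160. Neither ratio took the library size into account.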

How the results depend on the processing

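Of the alternatives, 241 values that answer a comparison were rated the same, 25 moved, 25 reversed and 1 became significant. A test was rated the same if its direction and its side of an adjusted p of 0.05 held, also where neither value passed. A count of DMRs or of called regions was rated the same if it stayed near the main count, and moved if not. The densities against the rest and against Zfp kept their sign throughout. Against Olfr, the density ratio was 0.0514 with 20 kb flanks, 0.00588 at a MACS threshold of 1e-10 and 0.00223 with the same number of peaks, and the Vmn1r to Vmn2r ratio was 0.42 with 20 kb flanks. The ratio to Olfr peaks became 0.0453 with no flank and -0.0542 with 20 kb (genotype, the latter with an exact permutation p of 0.0286), -0.0633 at the MACS threshold of 1e-10 and -0.17 with the same number of peaks (MEFs), and -0.0744, -0.00532 and -0.17 with 20 kb, the stricter threshold and the same number (ES). The genotype difference in fold enrichment was 0.24 with 20 kb, 0.206 with the same number and 1.06 within series 979. The share difference was -0.0182 (same number), -0.000995 (protein-coding) and -0.00499 (covered bases) for the genotype, -0.0392 for MEFs and -0.0340 for ES (same number).

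Member DMRs numbered 2 at the MACS threshold of 1e-10, 1 with the same number of peaks and 2 with 20 kb (genotype), 17, 10 and 97 with the same number, no flank and 20 kb (MEFs), and 1, 11 and 1 with no flank, 20 kb and members with no copy (ES). These are counts and not shares. A flank changes only which stretches are members, while the genome keeps 17371 DMRs of Aid+/+ iPS clones and 1895 of MEFs in the MEF comparison. The threshold and the number of peaks also change the DMRs of the whole genome. For the genotype, called regions numbered 2 with filtered tags as library size (0.025% of all regions) and 3 with DESeq2 (0.0499% of all). For MEFs they numbered 46 with filtered tags (84.2% of all), 14 in limma (33.2% of all) and 7 among members with no copy. For ES they numbered 2 with DESeq2 (1.36% of all). In limma the sign turned at Vmn1r112 (0.15) and Vmn1r139 (0.23) for the genotype, at Vmn1r48 (-0.19) and Vmn2r53 (-0.16, also -0.27 with filtered tags) for MEFs, and at Vmn1r-ps25 (0.12) for ES. The cause was not tested. The clone series as a replicate block gave 0 called members, and pairs of replicate numbers had no meaning.

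Leaving out each sample gave, for genotype, MEFs and ES, share differences of -0.00467 to 0.00648, 0.0250 to 0.0470 and 0.00372 to 0.0573, fold enrichment differences of -0.361 to 0.321, -5.67 to -4.36 and -3.45 to -2.05, ratios to Olfr of -0.0629 to -0.0105, -0.0716 to 0.101 and -0.0171 to 0.101, DMRs of 0 to 6, 27 to 38 and 3 to 21, and called regions of 0 to 1, 19 to 28 and 0 to 7. Whether depth limits the weakest regions was not tested. Peak numbers did not rise with filtered tags among Aid+/+ iPS clones. Clones 1 to 4 had 15.9, 11.6, 12.8 and 9.63 M filtered tags and 74815, 83991, 95815 and 106408 peaks.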
